A study of Mus musculus with 4 samples.

Results

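The subject of this report is a set of 53 cell cycle genes, a list of cyclin, replication and mitosis genes, measured by RNA sequencing in cultured mouse alveolar type II cells. The members were taken by gene symbol, and all 53 were found among the 28096 gene identifiers of the tables. They were read as 3 classes by the step of the cycle in which they act: 16 G1 genes, 16 replication genes and 21 mitosis genes. No measured value entered the choice of a class.

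Alveolar type II cells are the surfactant-making epithelial cells of the lung alveolus. They had been sorted from mouse lung by FACS as EpCAM-positive cells that lacked CD24, CD45, CD31 and podoplanin, and grown in pure matrigel in BEGM medium. The medium held 100 nM 4-hydroxytamoxifen (4OHT) for 4 days and none for 1 further day, after which RNA was extracted. All 4 libraries analysed here carry the genotype label KRasEtv wt. The study's design lists 3 genotypes of 4 mice each, and each includes the KRaswt/d12 allele and RosaCreERT2, a Cre recombinase that 4OHT switches on and that is driven by a broadly active locus. The second genotype adds Etv5loxp/loxp, and the third adds both Etv4KO/KO and Etv5loxp/loxp. The labels do not say which of them KRasEtv wt denotes, and only libraries with that label were analysed here. With a single group, all of it given 4OHT, no contrast of genotype, drug or culture time can be made, so levels and the differences between replicate libraries are described. The libraries have no replicate number in their labels. They are called 1 to 4 in the order of their accessions, and the labels do not tie each of them to a mouse. A p-value here thus speaks of libraries only. In the test of spread it measures how far a gene's libraries differ beyond the trend over genes, for biological or technical reasons. In the test of pairs it concerns the difference between partner genes within the libraries.

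Cells enter the cycle when D cyclins, with the kinases Cdk4 and Cdk6, phosphorylate the Rb family and so release E2F transcription factors, which switch on cyclin E and the genes of DNA replication. Replication origins are licensed by the origin recognition complex, Cdc6 and Cdt1, which load the Mcm helicase, and geminin prevents a repeat of this step. Genes of G2 and mitosis are switched on later by the B-Myb and FoxM1 factors with the MuvB complex, through promoter letters known as the CHR and through CCAAT boxes bound by NF-Y. Type II cells divide rarely in the healthy adult lung, but they are the progenitors that repopulate the alveolus after injury and they divide in culture.

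Library totals ran from 12133251 to 13591876 reads, of which the 53 genes took 0.336%, 0.385%, 0.503% and 0.407% in libraries 1 to 4. The mitochondrial ribosomal RNAs took 23.02%, 35.1%, 19.6% and 38.9% in the same order. Library 3 had 66.3 nRPKM of Xist against at most 0.784 in the others, and little of the Y-linked gene Eif2s3y (0.243 against at least 14.6), the reverse of the other libraries. The unit nRPKM is the authors' RPKM adjusted by size factors, that is, reads scaled by the gene's length and the depth of the library. All 12 type II markers listed had a mean of at least 10 nRPKM, led by the surfactant gene Sftpc at 10006 ± 3649 (SD, n = 4). All 8 endothelial markers lay below 1 nRPKM. Etv5, a type II gene that is floxed in all but the first of the listed genotypes, had 16.2, 37.2, 31.3 and 20.6 nRPKM in libraries 1 to 4. Libraries differed in their type II markers, whose mean deviation, log2(nRPKM + 1) in a library minus the gene's mean over the 4 libraries, was -0.71, 0.28, 0.32 and 0.12 in libraries 1 to 4. Library 1 was the lowest for all 12 of them, where 26.8% of genes with a mean of at least 1 nRPKM were lowest there. It also stands apart in the cell cycle values below, which are given with and without it.

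The CHR letters were most frequent in promoters of the mitosis class, and the E2F letters in those of the replication class. A window from 250 bases before to 50 after the transcription start was read from RefSeq (GRCm38.p6) for 42 of the 53 genes and for 27025 genes in all, and searched on both strands. The CHR was searched as TTTGAA or TTCGAA, the E2F core as TTCCCGC, as TTCGCGC, as TTGCCGC or as TTGGCGC, and the NF-Y box as CCAAT, whether or not matches overlapped. A CHR was present in 13 of 17 mitosis genes (76.5%), 2 of 14 replication genes and 3 of 11 G1 genes, against 21.7% of all genes. The E2F core was present in 10 of 14 replication genes (71.4%), 5 of 11 G1 genes and 3 of 17 mitosis genes, against 10.9% of all genes. CCAAT was found in 15 mitosis, 10 replication and 5 G1 genes, against 41.1% of all genes. Both a CHR and a CCAAT box stood in 13 mitosis genes, and in 8.61% of all genes. These are matches of letters in a window, not measured binding.

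**Figure D1:**
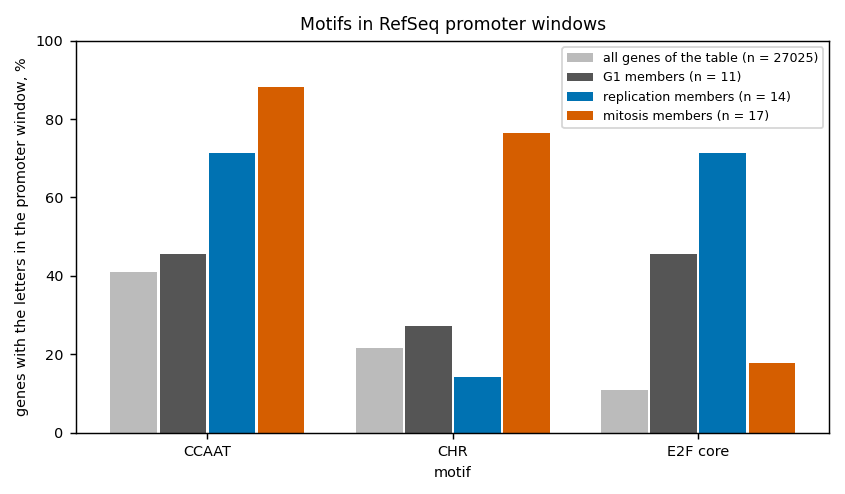
Share of genes (y axis, percent) whose RefSeq promoter window holds CCAAT, a CHR or an E2F core (x axis), for all genes of the table and for each class of members. The CHR bar of the mitosis genes reaches 76.5% and the E2F bar of the replication genes 71.4%, against 21.7% and 10.9% of all genes.

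The 150 bases before the start are shown for 5 mitosis genes and 1 replication gene, with matches to any of these motifs in capitals. Ube2c and Kif11 were chosen after the motifs were seen, so the stretches shown do not give the share of genes with a motif. Ube2c had the highest level of the mitosis class, Cdc20, Top2a and Cenpe were among the 5 members with the widest range over libraries, Kif11 is a spindle motor gene with both letters near its start, and Mcm6 was the highest Mcm gene. In GRCm38.p6 the stretches are Ube2c chr2:164769779-164769928 (plus strand); Cdc20 chr4:118437344-118437493 (minus strand); Kif11 chr19:37376232-37376381 (plus strand); Top2a chr11:99024190-99024339 (minus strand); Cenpe chr3:135212413-135212562 (plus strand); Mcm6 chr1:128359706-128359855 (minus strand).
Ube2c: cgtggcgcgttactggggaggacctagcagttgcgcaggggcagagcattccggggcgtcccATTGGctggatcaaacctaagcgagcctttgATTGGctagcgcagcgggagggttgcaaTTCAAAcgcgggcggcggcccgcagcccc
Cdc20: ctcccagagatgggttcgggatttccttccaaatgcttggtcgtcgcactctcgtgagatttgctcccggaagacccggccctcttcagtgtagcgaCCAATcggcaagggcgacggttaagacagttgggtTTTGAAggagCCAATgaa
Kif11: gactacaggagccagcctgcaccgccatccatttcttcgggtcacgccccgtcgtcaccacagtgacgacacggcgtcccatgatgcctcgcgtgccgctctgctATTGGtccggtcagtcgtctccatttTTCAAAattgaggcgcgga
Top2a: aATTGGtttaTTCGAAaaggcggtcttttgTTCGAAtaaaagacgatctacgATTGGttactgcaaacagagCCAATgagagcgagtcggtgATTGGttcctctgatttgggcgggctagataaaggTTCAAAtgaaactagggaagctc
Cenpe: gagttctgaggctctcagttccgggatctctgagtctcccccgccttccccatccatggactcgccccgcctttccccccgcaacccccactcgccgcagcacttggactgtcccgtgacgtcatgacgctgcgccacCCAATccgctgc
Mcm6: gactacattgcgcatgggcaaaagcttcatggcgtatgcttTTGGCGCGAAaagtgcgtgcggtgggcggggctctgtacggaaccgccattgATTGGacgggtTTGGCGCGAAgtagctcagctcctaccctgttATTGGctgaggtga
Cdc20 held 1 CHR and 2 CCAAT boxes in this stretch, and Top2a held 3 and 4. Cenpe held 1 CCAAT box and no CHR letters. Of stretches not shown, those of Bub1b and Cenpf held CCAAT (1 and 2) but no CHR, and that of Mki67 held 2 CHR. The stretch of Rrm2, the highest replication gene, held no E2F match. Mcm6 held 4 E2F matches, which lie in overlapping pairs, so that each pair shows as a single run of capitals.

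All 53 genes were expressed. Each had a mean of at least 1 nRPKM, as did 42.4% of all identifiers, and 24 had at least 10, as did 13.9%. The median gene of the mitosis class had 11.1 ± 3.09 nRPKM, that of the replication class 8.14 ± 1.55 and that of the G1 class 7.004 ± 1.11 (SD, n = 4). The median mitosis gene exceeded the median replication gene in every library, by 1.14, 1.30, 1.41 and 1.53 times in libraries 1 to 4. The lowest read count behind any value was 52, for Mybl2 in library 1. For 51 of 53 genes the SD of the log2 level over libraries was more than 2 times the SD expected from counting alone. The exceptions were the replication inhibitor Gmnn and the survivin gene Birc5. The share over all genes was not computed, so this count is not read as particular to the 53. Over all genes, the chi-square per degree of freedom between the counts of 2 libraries was 31.0 to 89.0, also far more than counting alone gives.

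**Figure D2:**
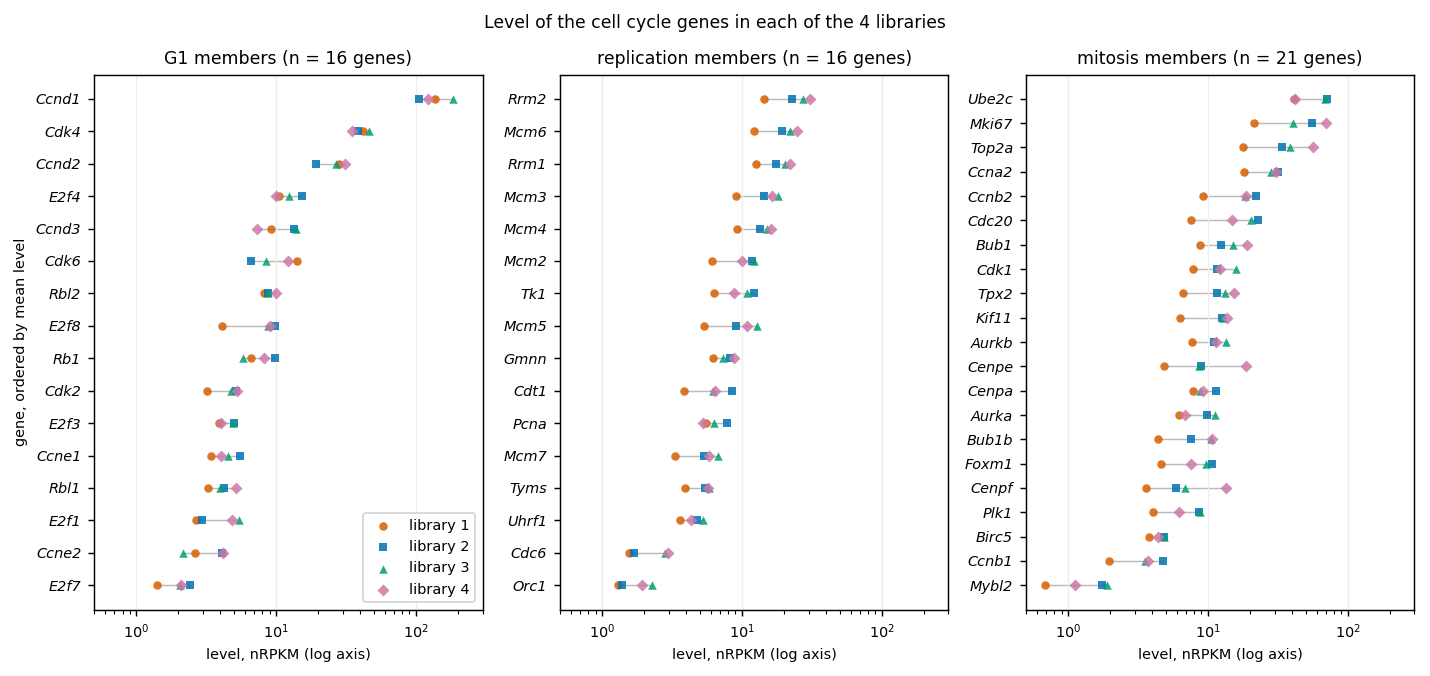
Level of each gene in each library (x axis, nRPKM on a log axis), with genes of each class ordered by their mean (y axis), points for the 4 libraries and a grey line over their range. Ccnd1 lies between 105 and 185 nRPKM, above every other member, and the library 1 points lie at the left end for most replication and mitosis genes.

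Among the G1 genes, cyclin D1 and Cdk4 were the highest partners in level. The cyclin gene Ccnd1 had 138, 105, 185 and 122 nRPKM in libraries 1 to 4 (138 ± 34.5, SD, n = 4, from 7095 to 14731 reads). Ccnd2 had 28.4, 19.3, 26.9 and 31.1 (26.4 ± 5.05), and Ccnd3 had 9.16, 13.5, 13.98 and 7.35 (10.998 ± 3.26). Ccnd1 made up 76.05% to 81.9% of the summed D cyclin level in a library, and the order Ccnd1, Ccnd2, Ccnd3 held in all 4. The kinase gene Cdk4 had 41.99, 38.6, 46.3 and 35.2 nRPKM (40.5 ± 4.77), and Cdk6 had 14.2, 6.68, 8.49 and 12.3 (10.4 ± 3.42). Cdk4 had 2.87 to 5.78 times the level of Cdk6, with the smaller ratios in libraries 1 and 4, where Cdk6 was high.

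Of the genes at and after the Rb switch, Cdk2, the partner of cyclins E and A, had 3.21, 5.16, 4.81 and 5.30 nRPKM (4.62 ± 0.964). The E cyclin genes had 3.46, 5.56, 4.57 and 4.05 for Ccne1 and 2.62, 4.13, 2.18 and 4.18 for Ccne2, and their order turned in library 4. In the Rb family, Rbl2 (p130) had 8.27, 8.75, 8.73 and 9.95 nRPKM and varied least of all 53 genes, with a coefficient of variation of 8.07%. Rb1 had 6.67, 9.91, 5.80 and 8.19 and Rbl1 (p107) had 3.27, 4.25, 3.95 and 5.19, so that Rbl1 was the lowest of the family in every library. Among E2F genes, the Rb-family partner E2f4, known as a repressor in resting cells, was highest with 10.6, 15.2, 12.4 and 10.1 nRPKM. The activators E2f1 and E2f3 had 2.69, 2.95, 5.44 and 4.86 and 3.90, 5.05, 4.92 and 4.06, and which of them was higher differed between libraries. Of the late repressors, E2f8 had 4.11, 9.92, 8.82 and 9.09 and E2f7 had 1.42, 2.43, 2.07 and 2.08, the lowest of the G1 class. E2f8 was the G1 gene with the largest shortfall in library 1.

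Replication genes were led by the subunits of ribonucleotide reductase, which makes deoxynucleotides, and by the Mcm helicase. The regulated subunit Rrm2 had 14.4, 22.8, 27.6 and 30.8 nRPKM in libraries 1 to 4 (23.9 ± 7.10), and the large subunit Rrm1 had 12.6, 17.5, 20.5 and 21.95 (18.1 ± 4.11). Their ratio was 1.14 to 1.40, above 1 in all 4 libraries. The thymidine kinase gene Tk1 had 6.27, 12.2, 10.95 and 8.78 and the thymidylate synthase gene Tyms 3.90, 5.43, 5.83 and 5.72, so that Tk1 was the higher in each library.

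The 6 Mcm genes, whose proteins form a hexamer, did not have equal levels. In libraries 1 to 4, Mcm6 had 12.2, 19.2, 21.9 and 24.7 nRPKM, Mcm3 had 9.11, 14.4, 18.2 and 16.4 and Mcm4 had 9.28, 13.5, 15.02 and 16.1. Mcm2 had 6.16, 11.8, 12.2 and 10.05, Mcm5 5.33, 9.10, 12.7 and 10.96 and Mcm7 3.32, 5.38, 6.78 and 5.86. Mcm6 was highest and Mcm7 lowest in each library, 3.23 to 4.21 times apart. All 6 were lowest in library 1, by 37.7% (Mcm4) to 51.2% (Mcm5) below the mean of the others. Of the 50-base words of the Mcm7 transcript, 34.2% also occur, on either strand, in another annotated gene. Such words can lie elsewhere in the genome or in an annotated gene that overlaps the same locus, and these were not told apart. Only words repeated elsewhere keep a read that short from aligning uniquely, so the level of Mcm7 is uncertain to an unknown degree.

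The origin licensing genes Orc1 and Cdc6 were the lowest of the replication class. Orc1, of the origin recognition complex, had 1.30, 1.40, 2.28 and 1.93 nRPKM (1.73 ± 0.461, from 75 to 144 reads), and the loader Cdc6 had 1.57, 1.69, 2.80 and 2.96 (2.26 ± 0.730). Cdc6 lay above Orc1 in all 4 libraries. The loader Cdt1 had 3.83, 8.46, 6.26 and 6.47 and its inhibitor geminin (Gmnn) 6.23, 8.24, 7.38 and 8.79. Their ratio ran from 0.615 in library 1 to 1.03 in library 2, so that neither was higher throughout. The sliding clamp Pcna had 5.53, 7.82, 6.29 and 5.26 and Uhrf1, which brings maintenance methylation to the fork, 3.60, 4.80, 5.28 and 4.35. Pcna shares 31.8% of its words with other genes, and it was the only replication gene that was not lowest in library 1.

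By mean level, the mitosis genes Ube2c and Mki67 came next after Ccnd1, followed by the G1 gene Cdk4 (40.5 nRPKM) and then Top2a. Ube2c, the ubiquitin-conjugating enzyme of the anaphase-promoting complex, had 41.3, 70.7, 69.1 and 42.2 nRPKM in libraries 1 to 4 (55.8 ± 16.3). The proliferation marker Mki67 had 21.3, 55.7, 40.6 and 70.4 (47.002 ± 21.01), and topoisomerase Top2a had 17.9, 34.1, 38.6 and 56.2 (36.7 ± 15.7). Ube2c was thus alike in libraries 1 and 4, whereas library 4 held the most Mki67 and Top2a and library 1 the least.

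Of the mitotic cyclins and their kinase, Ccna2 had 18.1, 31.6, 28.3 and 30.6 nRPKM, Ccnb2 9.20, 22.1, 18.3 and 18.7, Ccnb1 1.97, 4.82, 3.57 and 3.76 and Cdk1 7.89, 11.6, 16.01 and 12.3. Ccnb1 had 0.195 to 0.218 times the level of Ccnb2, a narrow range over the libraries. However, Ccnb1 shares 42.1% of its words with other genes, the most of the 53, and Ccnb2 none. With lengths reduced to the words no other gene holds, a calculation added after seeing the data, Ccnb1 minus Ccnb2 was -1.34 on the log2 scale, from -1.98 without that correction.

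Regulators of spindle and checkpoint had intermediate levels. The checkpoint kinase gene Bub1 had 8.74, 12.5, 15.2 and 19.2 nRPKM and its relative Bub1b 4.43, 7.64, 10.6 and 10.7, with Bub1 higher in each library. The APC activator Cdc20 had 7.53, 22.8, 20.4 and 14.96, with library 1 well under the rest. The Aurora kinase genes had 6.21, 9.93, 11.2 and 6.89 for Aurka and 7.77, 11.2, 13.4 and 11.4 for Aurkb, and Aurkb was the higher throughout. The spindle motor Kif11 had 6.30, 12.5, 12.95 and 13.7 and the spindle assembly factor Tpx2 6.66, 11.7, 13.4 and 15.3. The mitotic kinase gene Plk1 had 4.03, 8.69, 8.76 and 6.24 and survivin (Birc5), of the chromosomal passenger complex, 3.82, 4.85, 4.85 and 4.40.

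Among centromere genes, Cenpa, the centromeric histone H3, had 7.81, 11.4, 8.82 and 9.32 nRPKM. The kinetochore motor Cenpe had 4.87, 8.99, 8.72 and 18.7 and the kinetochore protein Cenpf 3.59, 5.97, 6.84 and 13.4, both highest in library 4. Cenpf stood at 0.664 to 0.785 times Cenpe in every library although each ranged over 3.74-fold (Cenpf) and 3.84-fold (Cenpe). The transcription factor genes of this class were Foxm1, with 4.64, 10.6, 9.75 and 7.53, and Mybl2 (B-Myb), with 0.689, 1.75, 1.90 and 1.13, the lowest of the 53.

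Partner genes were compared in 23 pairs, as the difference of log2(nRPKM + 1) within a library. In 19 pairs the same gene was higher in all 4 libraries. Each of these had p = 0.125 in a two-sided exact sign-flip permutation test, the smallest that 4 libraries allow, and an adjusted p of 0.151 (Benjamini-Hochberg over the pairs), so no pair could pass 0.05. The largest differences were 3.54 ± 0.46 for Ccnd1 over Ccnd3, 2.65 ± 0.11 for Ccna2 over Ccnb1, 2.33 ± 0.33 for Ccnd1 over Ccnd2, -1.98 ± 0.14 for Ccnb1 minus Ccnb2, 1.93 ± 0.15 for Foxm1 over Mybl2 and 1.91 ± 0.50 for Cdk4 over Cdk6 (log2, SD, n = 4). Rbl2 exceeded Rbl1 by 0.95 ± 0.13, and E2f8 exceeded E2f7 (E2f7 minus E2f8 -1.54 ± 0.30). The 4 pairs without a constant order were Ccne1 minus Ccne2 (0.36 ± 0.35), Rb1 minus Rbl2 (-0.22 ± 0.28), Cdt1 minus Gmnn (-0.29 ± 0.26) and E2f1 minus E2f3 (-0.17 ± 0.40). Their exact permutation p-values were 0.25, 0.25, 0.25 and 0.5. In 16 of 53 genes over 10% of the words also occur in other genes, overlapping genes included, so their levels may be uncertain. Among these were Cdk4 (29.5%), Ccnd1 (27.2%), Mybl2 (23.9%) and Ccnd3 (21.7%).

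Library 1 had the lowest level of most replication and mitosis genes and of some G1 genes. It was the lowest library for 44 of 53 genes, where 26.8% of the 11904 genes with a mean of at least 1 nRPKM were lowest there. The low level of cell cycle genes in library 1 was known from earlier results when the members were chosen, so the count describes these libraries and is no independent support. By class these were 21 of 21 mitosis genes, 15 of 16 replication genes and 8 of 16 G1 genes. Libraries 2, 3 and 4 were lowest for 3, 2 and 4 members, where 26.6%, 18.4% and 28.1% of expressed genes were. The mean deviation from the 4-library mean of log2(nRPKM + 1) was -0.60, 0.19, 0.20 and 0.22 for mitosis genes, -0.44, 0.08, 0.21 and 0.16 for replication genes and -0.17, 0.05, 0.06 and 0.05 for G1 genes in libraries 1 to 4, and the median over all expressed genes was -0.01 in library 1. Library 1 also had the fewest reads, while its share of mitochondrial ribosomal RNA lay between those of libraries 3 and 2. In CPM of the total, a scaling that shifts the median expressed gene by 0.18 in library 1, the 3 class means there were -0.42 (mitosis), -0.27 (replication) and 0.011 (G1). Relative to the median gene, the G1 value was -0.16 in the main scaling and -0.15 in CPM of the total. For G1 members with a mean of at least 10 nRPKM it was 0.063, so its sign rests on which members are taken. In bulk RNA, fewer cycling cells and less RNA per cycling cell cannot be told apart.

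**Figure D3:**
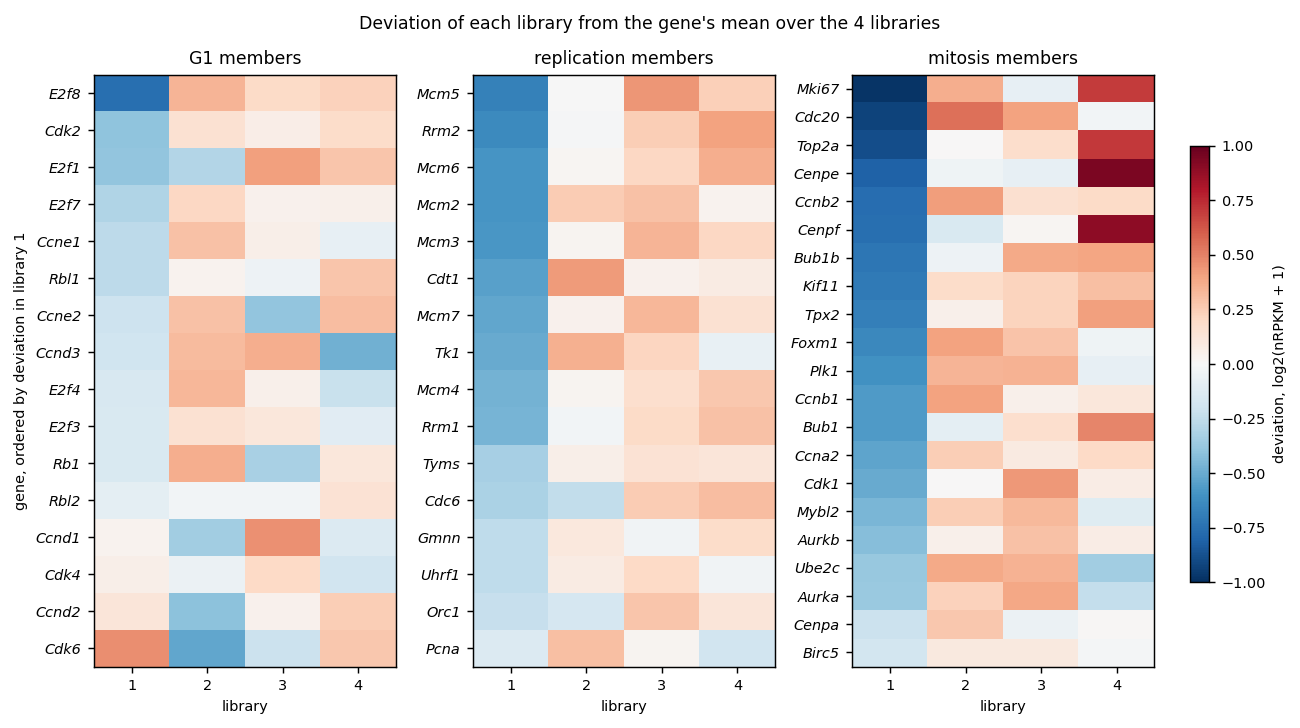
Deviation of each library (columns) from the gene's mean over the 4 libraries, on the log2(nRPKM + 1) scale (colour, blue below and red above the mean), for the genes of each class (rows, ordered by library 1). All mitosis rows are lowest in library 1, whereas Ccnd1, Cdk4, Ccnd2 and Cdk6 at the foot of the G1 panel are not.

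The difference ran through the G1 class. Ccnd1, Ccnd2, Ccnd3, Cdk4 and Cdk6 had a mean deviation of 0.09, -0.21, 0.17 and -0.06 in libraries 1 to 4, and none of the 5 was lowest in library 1. Cdk6 was the only member highest there (0.46 on the log2 scale). The 11 other G1 genes had -0.29, 0.17, 0.01 and 0.10, and 8 of them were lowest in library 1. This division of the class was made after its values were seen and was not tested. Among those 11, E2f8 had 4.11 in library 1 against 8.82 to 9.92 in the others, E2f1 had 2.69 in library 1 against 2.95 to 5.44 in the others and Cdk2 had 3.21 in library 1 against 4.81 to 5.30 in the others.

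In the mitosis class, shortfalls in library 1 ranged from 18.7% (Birc5) to 61.7% (Mki67) of the mean of the others. Kif11 had 6.30 in library 1 against 12.5 to 13.7 in the others, Foxm1 had 4.64 in library 1 against 7.53 to 10.6 in the others and Ccnb2 had 9.20 in library 1 against 18.3 to 22.1 in the others. In each of these genes library 1 lay below the range of libraries 2 to 4. Without library 1, the SD of the class mean over libraries was 0.0171 log2 units for mitosis genes, from 0.403 with it, and 0.0660 for replication genes, from 0.300. By promoter letters, the median deviation in library 1 was -0.57 for the 30 members with CCAAT and -0.29 for the 12 without. It was -0.60 with a CHR (18) and -0.36 without (24), and -0.51 with an E2F core (18) and -0.42 without (24). These are descriptions, since class and motif go together.

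Per gene, the spread between libraries was tested on the counts with edgeR's quasi-likelihood dispersion. None of the 53 genes varied more than the trend at an adjusted p under 0.05 (smallest adjusted p = 0.684), where 0.0152% of tested genes did. At an unadjusted p under 0.05 there were 6, all mitosis genes (Cenpe, Cenpf, Cdc20, Top2a, Mki67 and Bub1b), where 5.13% of tested genes were. DESeq2 marked none of the 53 as a dispersion outlier. The median ratio of a gene's dispersion to the trend was 2.89 for mitosis, 1.81 for replication and 1.002 for G1 genes, and 0.838 for all tested genes. Without library 1 it was 0.631 for the 53 genes and 0.725 for all, and Cenpe and Cenpf were the 2 genes at an unadjusted p under 0.05.

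Markers of other cells and states also differed in library 1. The summed level of 7 basal cell markers was 166, 131, 42.3 and 66.8 nRPKM in libraries 1 to 4, of 11 leukocyte markers 87.6, 75.6, 42.7 and 28.9, and of 10 mesenchymal markers 29.4, 17.98, 5.58 and 13.1. At a mean of at least 1 nRPKM were 5 basal, 6 leukocyte and 4 mesenchymal markers. Of these, 3 basal, 3 leukocyte and 3 mesenchymal markers were highest in library 1, and 2, 2 and 1 in library 2. The remaining leukocyte marker was highest in library 3. The basal marker Pdpn, also listed as a type I marker, was lowest in library 1. Single genes carried much of the sums, with Krt5 at 70.6, Cd68 at 35.3 and Dcn at 14.1 nRPKM in library 1. Library 2 came next to library 1 in all 3 sums. Club cell markers summed to 352, 1075, 171 and 303 nRPKM over 6 genes, of which 6 had at least 1. This sum was highest in library 2, and Scgb1a1 alone held 239, 880, 93.0 and 188 of it. By gene, 4 of the 6 were highest in library 2 and 2 in library 1. The 7 ciliated cell markers summed to 11.3, 17.7, 18.3 and 15.2, with 3 at 1 or more. Transitional epithelial markers had a mean deviation of 0.65, -0.18, -0.10 and -0.37 (8 of 10 highest in library 1) and type II markers were lowest there (12 of 12). Of expressed genes, 22.5% were highest in library 1, 25.4% in library 2 and 24.5% in library 3, and 26.8% were lowest in library 1. Type I markers had 0.08, -0.05, 0.10 and -0.13. The part of these cells and states in the cell cycle values was not tested.

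**Figure D4:**
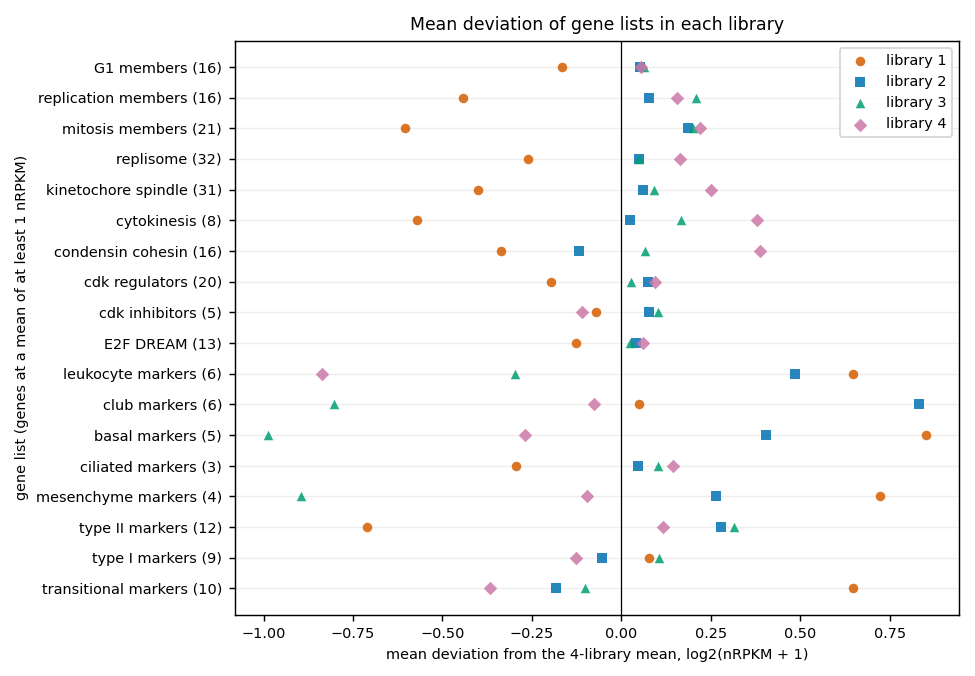
Mean deviation of each gene list (rows, with the number of genes at a mean of at least 1 nRPKM) from its 4-library mean in each library (x axis, log2 scale; points are libraries); the endothelial list has no such gene and is not drawn. Library 1 is lowest for the 3 member classes and for type II markers, and highest for transitional, basal, leukocyte and mesenchymal markers.

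Library 4 differed in another way, with deviations that went with transcript length and GC content. It was highest for 19 of 53 genes, where 27.6% of expressed genes were highest there. Libraries 1, 2 and 3 were highest for 1, 16 and 17 members, where 22.5%, 25.4% and 24.5% of expressed genes were. The largest deviations were those of Cenpe (0.94), Cenpf (0.90), Top2a (0.71) and Mki67 (0.70), whose longest coding transcripts have 7910, 11130, 5221 and 10061 bases. Ccnd3 (2113 bases), Ube2c (2191) and Aurka (1905) lay below their mean in library 4, at -0.48, -0.35 and -0.24. Single genes departed from the trend: the short Gmnn (1127 bases) and Ccnb2 (1531) were at 0.19 and 0.19. The longest, Cdk6 (11525), was at 0.27 and went with the trend, at 0.036 after the fit on length and GC described below. The Cenpf to Ube2c ratio was 0.0871, 0.0844, 0.0990 and 0.319 in libraries 1 to 4, with the libraries other than 4 alike.

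The same trend held over 10304 expressed genes. Their median deviation in library 4 was -0.19 for transcripts of up to 2000 bases and 0.19 for those over 7000. Across the 53 members Pearson's r of this deviation with log2 length was 0.60 and with GC content -0.60, against 0.48 and -0.45 across expressed genes. Other libraries had such trends too. Across members r was -0.47 with length in library 2 and 0.61 with GC in library 3. Across expressed genes r was -0.29, -0.15 and -0.07 with length and 0.02, 0.17 and 0.36 with GC in libraries 1 to 3. These describe genes within the same libraries, which are not independent replicates. After a fit on length and GC over the expressed genes, added after seeing the data, the deviations of Cenpe, Cenpf, Top2a and Mki67 in library 4 were 0.71, 0.65, 0.54 and 0.49. Library 4 was then highest for 14 members (25.2% of expressed genes). In the same fit library 1 was lowest for 45 of 53 genes (26.8% of expressed genes), and its mean deviation was -0.58 for mitosis and -0.44 for replication genes.

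**Figure D5:**
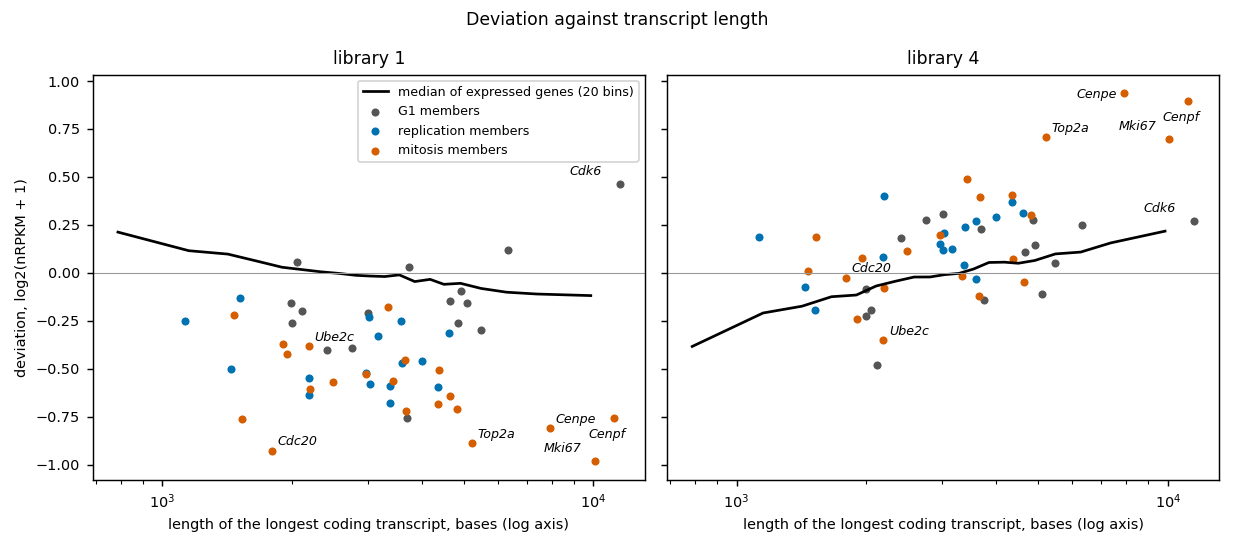
Deviation of each member (points, coloured by class) in library 1 and library 4 (y axis, log2 scale) against the length of its longest coding transcript (x axis, bases, log axis), with the median of expressed genes in 20 length bins (line). In library 4 the line rises with length and Cenpe and Cenpf lie highest, at 0.94 and 0.90, whereas most replication and mitosis points lie below the line in library 1.

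Other genes of the cycle were listed as well, and none of them was called in the spread test, where 0.0152% of tested genes were. Of expressed genes, 26.8% were lowest in library 1. Of 32 further replication fork genes all were expressed and 23 were lowest in library 1, with a mean deviation of -0.26 there. The highest were the GINS helicase subunits Gins2 (12.6, 12.9, 26.96 and 19.7 nRPKM in libraries 1 to 4) and Gins4 (15.1, 13.96, 16.9 and 17.3) and the primase Prim1 (10.7, 11.9, 15.02 and 20.6). Library 1 was lowest for Gins2 and Prim1 but not for Gins4. Of 31 kinetochore and spindle genes 26 were lowest in library 1 (-0.40), led in level by the checkpoint gene Bub3 (23.05 ± 2.68), the central spindle motor Kif23 (21.1 ± 9.42) and the passenger complex gene Cdca8 (13.8 ± 3.70). All 8 cytokinesis genes were lowest there (-0.57), with Prc1 at 8.42, 17.9, 18.8 and 18.3, Anln at 9.43, 14.1, 14.97 and 17.9 and Racgap1 at 4.67, 9.06, 10.05 and 9.23.

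Condensin and cohesin genes, which shape and hold chromosomes, were mostly highest in library 4. Of 16, 14 had their highest value there (27.6% of expressed genes) and 11 their lowest in library 1 (26.8% of expressed genes). Their mean deviations were -0.34, -0.12, 0.07 and 0.39 in libraries 1 to 4. The cohesin genes Smc1a and Rad21 had 27.3, 28.8, 49.1 and 70.3 and 26.2, 28.98, 42.1 and 47.5 nRPKM, and the cohesin release factor Wapl had 24.7, 20.02, 26.8 and 37.4. After the fit on length and GC their mean deviation in library 4 was 0.25, from 0.39.

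Regulators of the kinases had smaller mean deviations. The counts below stand beside 26.8% of expressed genes that were lowest in library 1. Of 22 CDK regulators and ubiquitin ligase genes, 20 were expressed and 9 of these were lowest in library 1 (-0.20), with the Cdk subunit Cks1b (16.8 ± 3.21), the APC subunit Cdc27 (15.7 ± 2.57) and the inhibitory kinase Wee1 (9.20 ± 1.10) highest. Of 13 further E2F, DREAM complex and related genes 6 were lowest in library 1 (-0.13), led by Trp53 (33.6 ± 7.25), the E2F partner Tfdp1 (10.7 ± 1.86) and Rbbp4 (9.11 ± 2.15). Of 7 CDK inhibitor genes 5 were expressed, and 1 was lowest in library 1. Cdkn1a (p21) had 206, 132, 185 and 118 nRPKM in libraries 1 to 4, highest in library 1 and next in library 3. Cdkn2b (p15) had 8.28, 7.60, 6.14 and 5.81 and Cdkn2c (p18) 2.08, 6.26, 4.36 and 4.94, the latter lowest in library 1.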

How the data were processed

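Polyadenylated RNA of 4 libraries was sequenced. The deposited table of each library gives, per the file headers, a count of reads that align to a gene model at a unique place, and a size-factor-adjusted RPKM (nRPKM). GSNAP and the genome build mm9 are named per the submitters' processing notes, which give no version. The annotation and any use of strand in counting were not stated.

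Entrez identifiers were matched to symbols in a RefSeq table (GRCm38.p6, used for names and promoters only). Transcript lengths, GC content and 50-base words shared with other genes come from the longest coding transcripts of GENCODE M21 (GRCm38). The members and lists were chosen with earlier results of these data known, among them the low level of cell cycle genes in library 1. Any member may be named, and of each pathway list the 3 genes with the highest mean. Marker lists are given as sums and counts, with some of their highest genes named.

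Spread was tested with edgeR 4.0.16 in R 4.3.3 (intercept-only quasi-likelihood fit, TMM scaling, filterByExpr, Benjamini-Hochberg over 13156 genes) and was tested on simulated data. DESeq2 1.42.0 was an alternative. Levels were compared as log2(nRPKM + 1), with a pseudocount of 1, which understates differences of low genes. Alternatives were other scalings, a pseudocount of 0.1, no filter, no length correction, a shorter promoter window, and each library left out. Identifiers without a symbol took 2.48% to 3.71% of reads.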

Additional observations from a re-analysis of the deposited data

Results flagged for a closer look

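Values of the 53 genes and of the 3 class means were looked at for a library far from the others, 56 sets of 4 values in all. In 3 of them the lowest library was apart by more than Dixon's critical value for 4 samples, where chance gives about 1 in 20, and each time it was library 1. The number of such sets is near that rate, with 1 of the 53 genes and 2 of the 3 class means among them. The class means are made of the same genes and all sets share the libraries. The sets are therefore not independent, and the rate is only a guide. Kif11, the spindle motor, had 6.30 nRPKM in library 1 against 12.5 to 13.7 in the others. The mean deviation of the G1 genes was -0.17 in library 1 against 0.05 to 0.06, and that of the mitosis genes was -0.60 against 0.19 to 0.22 on the log2 scale.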

How the results depend on the processing

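No paired analysis was possible because there is a single group. No member was called in the spread test under any alternative run (DESeq2 size factors, total counts, no filter, DESeq2 outliers, each library left out). The count of all genes called was 2, with 27 on total counts, 66 without a filter, 71 as DESeq2 outliers and 0 to 6 with a library left out, the least without library 2 or 3. Members at an unadjusted p under 0.05 numbered 6, with 3 on total counts, 11 without a filter and 2 to 8 with a library left out, the least without library 1. The deviation of the G1 genes in library 1 turned from -0.17 to 0.053 for genes of at least 10 nRPKM, 5 of which are D cyclins and their kinases, and to 0.011 in CPM of the total. Relative to the median of all genes the former was 0.063 and the latter -0.15, since that scaling shifts the median gene by 0.18 in library 1 and -0.23 in library 4. In that scaling 32 members were lowest in library 1, against 8.87% of expressed genes. Mitosis and replication genes kept their direction under every alternative run, with -0.42 and -0.27 nearest to 0. Without a length correction 5 pairs turned, as that alternative leaves out the length: Ccne1 minus Ccne2 (-0.24), Cdt1 minus Gmnn (0.78), Rrm2 minus Rrm1 (-0.50), Tyms minus Tk1 (0.60) and Cenpf minus Cenpe (0.045). A window from 150 bases before the start left a CHR in 1 replication gene.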

Other observations

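Among the pathway genes outside the 53, none passed adjustment in the spread test (edgeR), and 10 of the 125 tested (8%) stood at an unadjusted p under 0.05, against 5.13% of all tested genes. They were Lig1, Knl1, Kif4, Kif23, Nusap1, Kif14, Kif20b, Ncapg2, Ncaph and Smc1a, named after their values were seen. Kif23 had 10.6, 16.3, 25.6 and 31.8 nRPKM in libraries 1 to 4.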
